A study of Rattus norvegicus with 18 samples.

Results

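The comparison described here is the 4 h response to phenylephrine (PE) in cultured rat heart muscle cells that had first been given SR9009. The deposited level of every gene at 4 h was set against its level at 0 h within the SR9009 arm. Members were chosen by a rule on levels and not by their response: an accepted estimate above 0 at both times and a mean across the 6 groups of the series no smaller than 1 FPKM. FPKM is the number of fragments per kilobase of transcript relative to all mapped fragments of a library. Of 17312 genes in the table, 10545 had that mean and 10424 were members. The 121 others were all listed at 0 at 0 h or at 4 h in this arm and entered no difference. Just outside the threshold lay Cyp2r1, with a mean of 0.9995 FPKM and levels of 1.37 and 0.794 FPKM at 0 and 4 h. Just inside lay Nos3, with a mean of 1.0001 and levels of 0.973 and 1.49 FPKM.

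Neonatal rat ventricular myocytes were prepared from 2-day-old Sprague-Dawley pups, plated with serum and kept without serum before any compound was added. The SR9009 arm then received SR9009 for 24 h, with RNA taken at once (0 h) or after PE for 4 h or 48 h. The vehicle arm was handled in parallel with vehicle in place of SR9009. Each of the 6 groups had 3 libraries, 18 in all, and nothing in the labels says whether they came from separate cultures or preparations. The labels name no genetic change and no dose. Every culture at 4 h had PE, so PE and the passage of time in culture cannot be told apart.

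PE is an agonist of α1-adrenergic receptors, which couple through Gq proteins to phospholipase C, calcium and protein kinase C, and from there to ERK, calcineurin and nuclear kinases. In neonatal cardiomyocytes it is a standard stimulus for hypertrophy, in which cells enlarge, add sarcomeres and re-express fetal genes such as those of the natriuretic peptides. Such a stimulus first raises immediate early genes, which need no new protein, and later the structural genes. SR9009 is a small-molecule agonist of REV-ERBα and REV-ERBβ, nuclear receptors that act as repressors. They recruit corepressors to their target genes and form an arm of the circadian clock.

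The table holds 1 value per gene and group with a lower and an upper bound, made by the authors from the 3 libraries. No library values were used here, so no standard deviation, p-value or test could be computed. Differences are of log2(FPKM + 1), which understates the change of low genes, and each is followed in parentheses by its widest range, taken from the bounds of both groups. Higher and lower are used for genes whose difference is at least 1 (2-fold) in size with a range that excludes 0, so that the bounds of the groups do not overlap. That is a rule of size, not a test. FPKM summed to between 609018 and 710198 in the 6 groups, and at 5 FPKM or more the bounds lay a median of 15.0% of the value away from it at 0 h and 14.8% at 4 h. Cardiac muscle genes were at high levels in both groups. The summed level of 11 cardiomyocyte markers went from 15270 FPKM at 0 h to 30520 at 4 h, with 3 higher and a median difference of 0.76. That of 8 fibroblast markers went from 1838 to 936, with 3 lower and a median difference of -0.51. Abundant members weigh most in these sums. Actc1 alone went from 3160 to 10170 FPKM, Postn from 391 to 113 and Col3a1 from 656 to 270. Smooth muscle markers (10 compared) summed to 1917 and 1733 FPKM, with 1 higher and 2 lower. Both lower genes, Mylk and Myh11, missed the size with quantile normalization of FPKM over the groups (-0.86 and -0.97), and Myh11 also with median centring (-0.99). Dpt, 1 of the 3 lower fibroblast markers, missed the size with quantile normalization too (-0.87). Endothelial markers (7) summed to 22.3 and 21.1 FPKM and macrophage markers (7) to 11.9 and 11.2, with none called. Schwann and neuronal markers (4) had none called either. Erythroid markers (3) summed to 25.2 and 51.5 FPKM with 1 higher, and epicardial markers (4) to 26.2 and 13.7 with 1 lower. In bulk RNA, fewer cells of a type and less RNA per cell cannot be told apart.

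Of 10408 members with usable bounds, 190 genes were higher after 4 h of PE (1.83%) and 276 were lower (2.65%). The bounds of the 16 other members were unusable. A difference of at least 2 was seen in 19 of the higher and 16 of the lower genes. Another 23 genes differed by at least 1 with a range that included 0. The median difference over all genes was -0.06, with the middle of the distribution between -0.33 and 0.20 (quartiles). Of the 10408 genes, 4581 lay above 0 and 5827 below it. Rescaling FPKM to equal sums over the groups gave 147 higher and 415 lower genes, with the median of all genes at -0.17. Quantile normalization gave 210 higher and 207 lower genes, and median centring 223 and 231. The excess of lower over higher genes therefore depended on the scaling. Values below are without these scalings unless one is named.

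**Figure D1:**
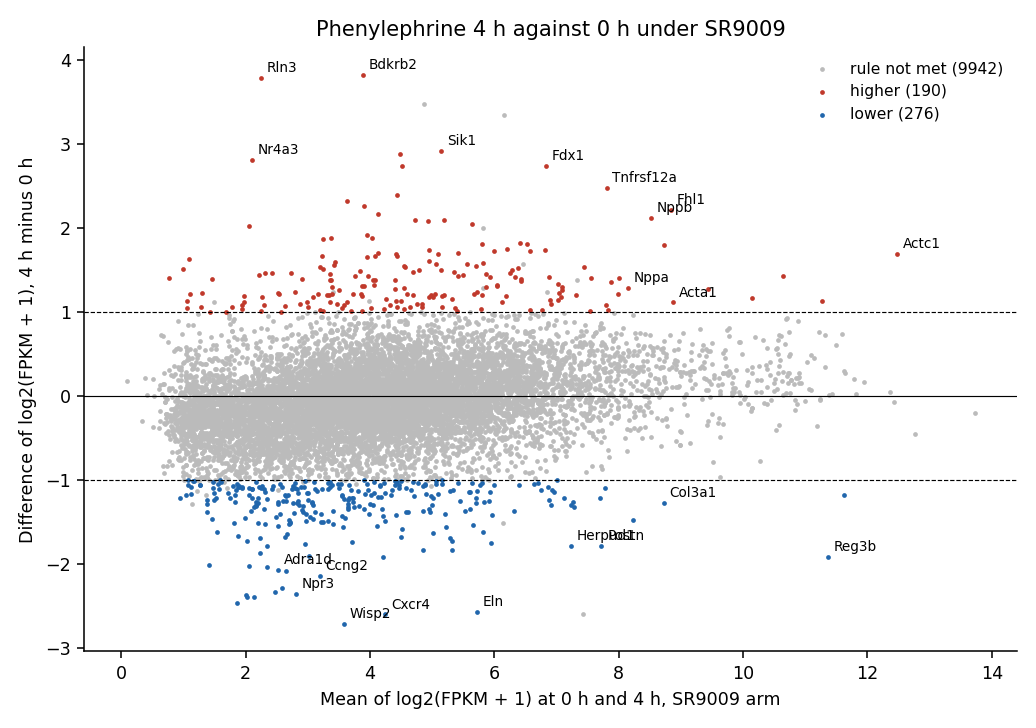
Difference of log2(FPKM + 1) between 4 h and 0 h of phenylephrine in the SR9009 arm (vertical axis) against the mean of the 2 log2 levels (horizontal axis), 1 point per gene. Red points are the 190 higher genes, blue points the 276 lower genes, and dashed lines mark differences of 1 and -1. Bdkrb2 and Rln3 lie at the top, and Wisp2, Cxcr4 and Eln at the bottom.

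The 12 genes with the largest increase were of mixed function. Bdkrb2, the constitutive bradykinin receptor (chromosome 6, 129399468 to 129429676, rn6), had 2.94 FPKM at 0 h (bounds 2.37 and 3.51) and 54.6 at 4 h (46.5 and 62.6), a difference of 3.82 (3.40 to 4.24). Rln3, which encodes a relaxin-family peptide hormone (chromosome 19, 25164497 to 25166528), had 0.276 FPKM before PE and 16.6 after it, a difference of 3.78 (2.92 to 4.46). Its lower bound at 0 h was 0, so the size of its difference rests on a level near the floor. Sik1, a kinase of the salt-inducible family that restrains CREB coactivators and class II histone deacetylases, went from 11.9 to 96.4 FPKM. Rnd1, a small GTPase that loosens actin stress fibres, went from 7.22 to 59.6 FPKM, and the orphan nuclear receptor Nr4a3 from 0.631 to 10.4. Each of the 5 had non-overlapping bounds at 0 and 4 h. Fdx1, the mitochondrial ferredoxin that feeds electrons to P450 enzymes, had 43.1 FPKM before PE and 291.8 after it, a difference of 2.73 (2.30 to 3.16). Tnfrsf12a, the receptor of the cytokine TWEAK, stood at 94.0 and 526 FPKM. Murc, which encodes the muscle caveolar protein cavin-4, had 7.85 and 58.2 FPKM, a difference of 2.74 (2.34 to 3.15). The remaining names among the 12 largest were the ubiquitin ligase adaptor Spsb4 (2.39), Nr4a1 (2.32), the inhibitor of DNA binding Id4 (2.26) and the LIM protein Fhl1 (2.22).

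Among transcription factors of the immediate early class, few were higher at 4 h. Fos, the AP-1 subunit, was the 1 of 9 AP-1 and ATF factors that met the rule, at 8.51 FPKM before PE and 29.2 after it, a difference of 1.67 (1.23 to 2.13). Atf3, a stress-induced repressor, had 4.46 and 6.22 FPKM and did not meet it (0.40, -0.04 to 0.86). Jun lay at 49.0 and 28.9 FPKM, a difference of -0.74 (-1.15 to -0.33). Of 19 EGR, KLF and related factors, 0 were higher and 1 was lower, Klf9, a glucocorticoid-responsive factor, at 13.7 and 6.24 FPKM (-1.02), which missed the rule with quantile normalization and with median centring. The median of that list was -0.15. Klf11, outside the list and named after its value was seen, was lower too (-1.11) and missed the rule with quantile normalization (-0.98). Egr1 had 15.1 FPKM before PE and 13.9 after it. Myc had 15.6 and 8.31 FPKM, a difference of -0.84 (-1.25 to -0.42) that did not meet the rule, and the MYC antagonists Mxd4 (-1.38) and Mxi1 (-1.02) were the 2 lower genes among 9 of the MYC network. Mxi1 missed the rule with quantile normalization (-0.99) and with median centring (-0.97). Nr4a1, at 4.55 and 26.8 FPKM, was with Nr4a3 among the 2 of 3 NR4A receptors that were higher.

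Feedback regulators of cyclic AMP, G protein and ERK signalling were called in part. In the CREB and salt-inducible kinase list 5 of 14 genes were higher and 0 lower. Beside Sik1 these were Rgs2, a regulator that speeds the shut-off of Gq (23.6 and 101 FPKM, 2.05), Crem, a CREB-family factor with repressor forms (1.51), and the phosphodiesterases Pde4b (1.29) and Pde10a (1.12), which break down cyclic nucleotides. The locus of Rgs2 overlaps that of Uchl5, so reads of the pair could have been split. Of 9 RGS genes, Rgs2 was the 1 that met the rule. Dusp5, a nuclear phosphatase of ERK, had 19.9 FPKM before PE and 58.2 after it (1.5, 1.09 to 1.91), and Dusp2 had 1.60 and 4.92 (1.19). They were the 2 of 16 ERK feedback inhibitors called, while the cytoplasmic ERK phosphatase Dusp6 had 19.5 and 12.7 FPKM (-0.58). In the calcineurin, NFAT and myocyte enhancer list 2 of 18 were higher. Hdac5, a class II deacetylase that represses MEF2, went from 34.4 to 96.0 FPKM (1.46), and Rcan1, the calcineurin inhibitor, from 86.9 to 193 (1.14).

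Of 22 hypertrophy markers compared, 11 were higher and 0 lower, and their median was 0.71 against -0.06 over all genes. Over the 21 with usable bounds in both arms, the median under SR9009 was 0.41, so the list median is sensitive to single members. Nppb, encoding brain natriuretic peptide (chromosome 5, 164796229 to 164797531), rose from 175 FPKM to 763, by 2.12 (1.72 to 2.52). Nppa, the gene of the atrial peptide, had 180.5 and 440 FPKM (1.28, 0.90 to 1.67). Acta1, the skeletal α-actin of the fetal heart, had 320 and 692 FPKM (1.11, 0.72 to 1.51). Its call was lost with quantile normalization (0.89) and with equal sums (0.98). Fhl1, a titin-binding LIM protein, was at 211 and 984 FPKM, the muscle LIM protein Csrp3 differed by 1.79, and the titin-associated repeat protein Ankrd1 was at 971 and 2621 FPKM (1.43). Myocd, the SRF coactivator myocardin, had 5.67 and 14.3 FPKM (1.2). Gata4 (1.03), a zinc finger factor of heart muscle genes, missed the rule with quantile normalization (0.94) and with equal sums (0.90). Myh6, the fast myosin heavy chain, was at 754 and 1693 FPKM (1.17) and Myh7, the slow fetal chain, at 620 and 413 (-0.59, -1.0 to -0.17). These neighbours are near-identical, Myh6 overlaps microRNA entries and had no estimate in the vehicle arm at 0 or 4 h, so reads of the pair may be divided differently between groups. The count for the whole list was 7 of 20 with quantile normalization and 8 of 22 with equal sums.

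Of 23 genes of the contractile apparatus and calcium handling, 2 were higher and 0 lower, and the median was 0.36. Actc1, cardiac α-actin, had 3160 FPKM before PE and 10170 after it, a difference of 1.69 (1.16 to 2.19). Myl2, the ventricular regulatory light chain, had 1666 and 3645 FPKM (1.13, 0.70 to 1.56) and lay at 1.00, just under the size, with equal sums. The troponins Tnni3 (0.89), Tnnt2 (0.76) and Tnnc1 (0.74) did not meet the rule. Beside these lists, the cardiomyocyte markers given above had a median of 0.76, and Actc1, Myl2 and Myh6 are their 3 higher members. The part of cell composition in these values was not tested.

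**Figure D2:**
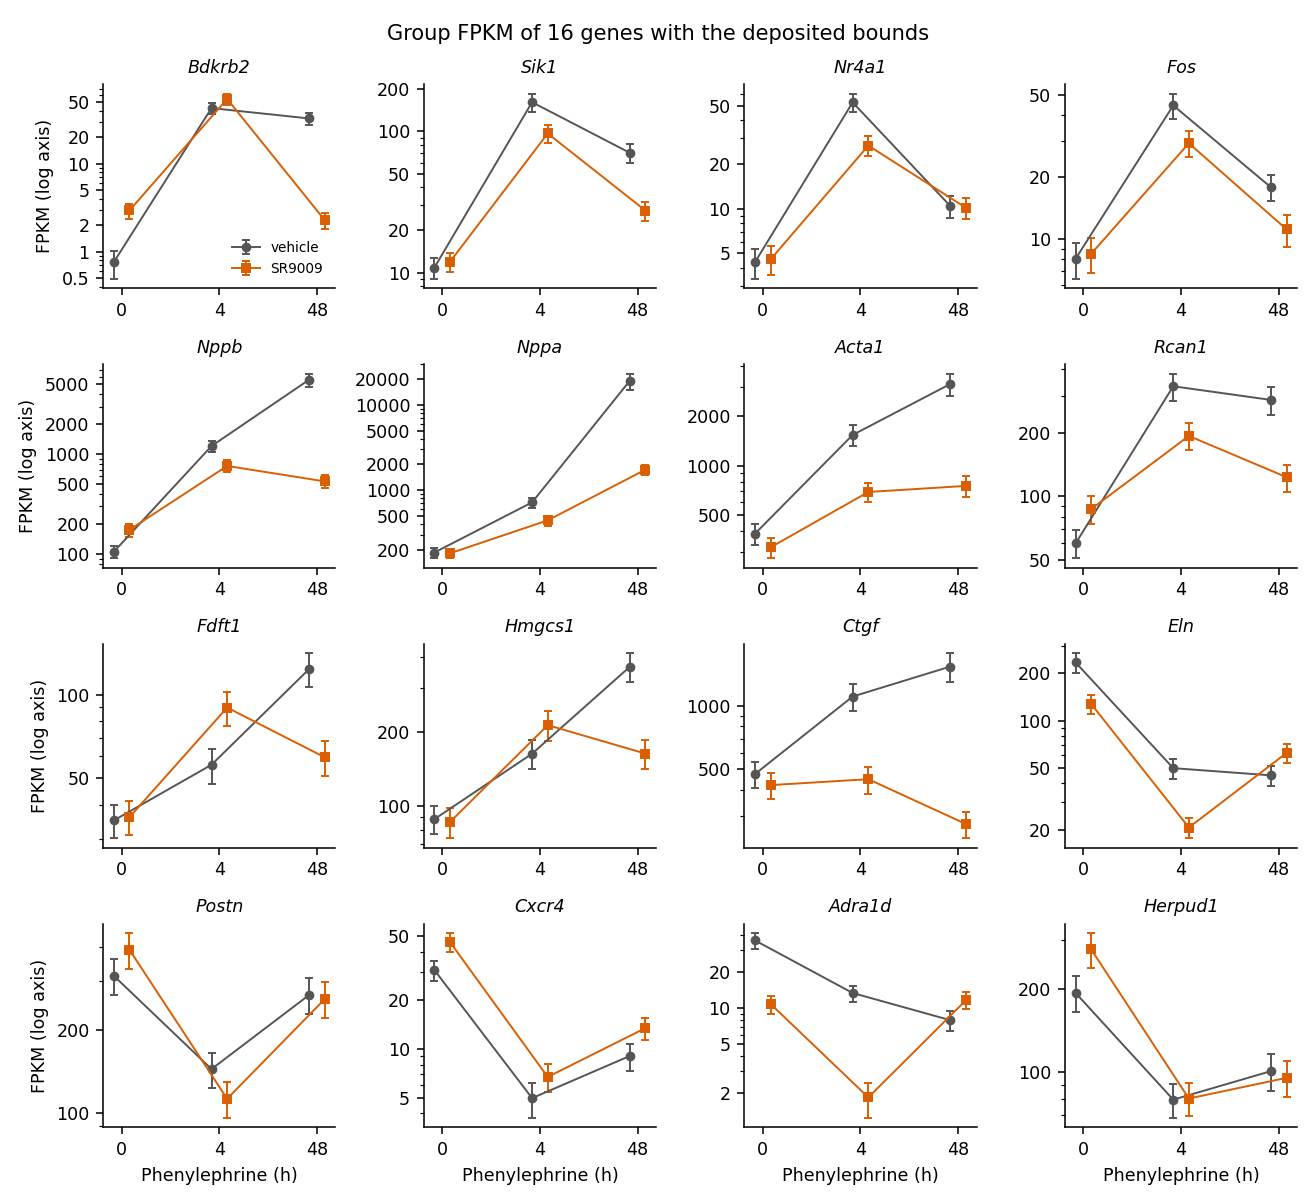
Group FPKM (log axes) of 16 genes at 0, 4 and 48 h of phenylephrine, evenly spaced on the horizontal axis, for the vehicle arm (grey circles) and the SR9009 arm (orange squares). Points are the authors' group values, bars run from the lower to the upper deposited bound, and lines only join the times. Under SR9009, Nppb went from 175 to 763 FPKM at 4 h and Eln from 127.5 to 20.8, while Ctgf had 420 and 448 FPKM.

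Promoter sequence was examined because many genes moved together, using the RefSeq promoter table of assembly GRCr8 (250 bases before to 50 after each gene's start), matched by symbol. It held 126 of the 190 higher genes, 189 of the 276 lower genes and 7906 of the 10408 compared. Each motif was counted alone on both strands, and matches of different motifs can share bases. The cyclic AMP response element TGACGTCA stood in 3.97% of the higher promoters (5), 1.06% of the lower (2), 3.34% of the compared and 1.91% of all 27457. The CArG box, the site of SRF, stood in 5.56% of the higher (7), 1.06% of the lower (2), 1.28% of the compared and 1.64% of all. The AP-1 motif TGANTCA stood in 10.3% of the higher and 10.1% of the lower promoters, against 4.83% of the compared and 7.33% of all. The FOXO motif GTAAACA stood in 0.794% of the higher, 4.23% of the lower, 2.12% of the compared and 3.76% of all, and the E-box CACGTG in 7.14%, 6.35%, 9.45% and 6.65%. The half-site of REV-ERB and ROR receptors, TAGGTCA, was found in 1.59% of the higher, 2.12% of the lower, 1.66% of the compared and 2.6% of all. The antioxidant response core TGACNNNGC stood in 15.1%, 8.99%, 15% and 12.2% of the same sets, and the sterol element TCACNCCAC in 1.59%, 2.12%, 1.25% and 1.13%. A match is a description of letters and not a bound site.

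The windows below show the 5 cyclic AMP elements and the CArG boxes that lie wholly before the start of a higher gene. They were picked after values were seen, because none of the 7 matched genes among the 12 largest increases held the cyclic AMP element. The seventh CArG promoter, that of Actc1, has its match from base 3 after the start and is not printed. Capitals mark the motif, and each sequence reads 5′ to 3′ toward the gene, on GRCr8.
Ch25h, chr1:241429414-241429465, minus strand: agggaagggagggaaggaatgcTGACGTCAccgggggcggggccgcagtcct
Lmcd1, chr4:146948779-146948830, plus strand: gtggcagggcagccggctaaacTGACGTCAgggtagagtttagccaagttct
Areg, chr14:17265703-17265754, minus strand: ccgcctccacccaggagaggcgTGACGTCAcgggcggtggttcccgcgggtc
Avpi1, chr1:250885584-250885635, minus strand: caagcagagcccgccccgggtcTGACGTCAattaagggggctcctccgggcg
Rcan1, chr11:45118414-45118465, minus strand: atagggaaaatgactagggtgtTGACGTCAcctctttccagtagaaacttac
Fhl1, chrX:139638372-139638425, plus strand: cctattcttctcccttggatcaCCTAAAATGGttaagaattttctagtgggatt
Dusp5, chr1:262543670-262543733, plus strand: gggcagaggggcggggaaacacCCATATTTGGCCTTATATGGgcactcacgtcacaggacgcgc
Acta1, chr19:68784257-68784310, minus strand: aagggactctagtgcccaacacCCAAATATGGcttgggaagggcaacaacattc
Ldb3, chr16:9924700-9924753, minus strand: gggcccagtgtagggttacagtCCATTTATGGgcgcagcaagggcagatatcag
Svil, chr17:57462661-57462692, minus strand: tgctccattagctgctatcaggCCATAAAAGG
Ppif, chr16:1263900-1263953, plus strand: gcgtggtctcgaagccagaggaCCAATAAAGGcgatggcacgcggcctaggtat
The Dusp5 window holds 2 CArG boxes end to end. Ch25h differed by 2.02, the growth factor Areg by 1.39 and the LIM-domain cofactor Lmcd1 by 1.47. Avpi1 differed by 1.33, the Z-disc protein gene Ldb3 by 1.08, the actin-binding Svil by 1.04 and the mitochondrial cyclophilin Ppif by 1.01. The last 3 missed the rule with quantile normalization (0.94, 0.98 and 0.97) and with equal sums (0.95, 0.91 and 0.88).

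Of the 3 genes of α1-adrenergic receptors, through which PE acts, 2 were lower. Of 16 adrenergic receptor and G protein genes 2 were lower and 0 higher. Adra1d, encoding the α1D receptor, had 10.8 FPKM at 0 h and 1.82 at 4 h (-2.06, -2.61 to -1.55), and Adra1b, encoding α1B, had 23.3 and 9.77 (-1.17, -1.52 to -0.83). Adra1a, the α1A receptor, had 9.86 and 13.9 FPKM and did not meet the rule (0.46, -0.05 to 0.98). Among 21 other G protein-coupled receptors, 3 were higher and 4 lower. S1pr1, a receptor of sphingosine phosphate, had 31.9 and 97.0 FPKM (1.58), and the lysophosphatidic acid receptor Lpar3 stood with Bdkrb2 as the other higher member (1.00), although it missed the rule with equal sums (0.93). The chemokine receptor Cxcr4 had 45.7 and 6.72 FPKM (-2.60, -3.05 to -2.16). The angiotensin receptor Agtr1a (-1.52), the endothelin receptor Ednra (-1.19) and the glucagon receptor Gcgr (-1.11) were lower too, Gcgr missing the rule with quantile normalization (-0.86). Npr3, the clearance receptor of natriuretic peptides, had 14.9 FPKM before PE and 2.10 after it (-2.36, -2.93 to -1.83).

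In the ion channel lists 4 genes were lower and 0 higher. Kcnj2, the inward rectifier that sets the resting potential, had 28.4 and 9.08 FPKM (-1.55, -2.04 to -1.07), and the potassium channel subunit Kcne4 differed by -1.67. They were 2 of 17 potassium channel genes, whose median was -0.54. Kcnd2, a channel of the transient outward current, had 1.55 and 3.82 FPKM and did not meet the rule (0.92), but was higher with quantile normalization (1.17). Outside these lists, the chloride intracellular channel gene Clic5 was higher (1.38), and the potassium channel genes Kcnmb1 (-1.26) and Kcng2 (-1.03) were lower. Kcng2 missed the rule with median centring (-0.97). Of 14 sodium, calcium and pacemaker channel genes 2 were lower, the sodium channel subunit Scn4b (-1.51) and the T-type calcium channel Cacna1g (-1.19), with a median of -0.16.

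Sterol and fatty acid synthesis genes had the highest median of the pathway lists with at least 7 genes, at 0.84, with 8 of 27 higher, 0 lower and 26 above 0. Ch25h, which makes the regulatory oxysterol 25-hydroxycholesterol, had 1.06 and 7.37 FPKM (2.02, 1.28 to 2.87). Hmgcs1, the synthase that starts the mevalonate pathway, was at 86.1 and 212 FPKM (1.29). Fdft1 (1.29), Msmo1 (1.23), Idi1 (1.30) and the SREBP-retaining protein Insig1 (1.15) were higher too, although the Idi1 locus overlaps Wdr37. The regulator genes Srebf2 (0.32) and Srebf1 (-0.14) did not meet the rule. Between 8 and 10 members were higher under the 3 scalings tried, with 26 of 27 above 0 under each.

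The 28 ribosome biogenesis genes compared all lay above 0, at a median of 0.68, but 1 met the rule, Rrs1, a factor of large-subunit assembly, at 10.2 and 22.2 FPKM (1.05), and it missed the rule with equal sums (0.93). Nolc1, a nucleolar chaperone, had 17.0 and 34.5 FPKM (0.98) and the methyltransferase Nop2 a difference of 0.87. Outside the list, the ribosome assembly genes Rrp15 (1.31) and Rpf2 (1.13), named after their values were seen, were higher. Cytoplasmic ribosomal protein genes had 0 of 23 called and a median of 0.16. All 26 oxidative phosphorylation genes lay above 0 with 0 called and a median of 0.42, which was 0.17 with 25 above 0 under quantile normalization. The largest of their differences was in cytochrome c, Cycs (0.78). In glycolysis and glucose handling 2 of 23 were higher and 1 lower. Slc16a3, the lactate exporter, had 11.8 and 53.8 FPKM (2.09, 1.67 to 2.53), the hexokinase Hk2 19.95 and 47.1 (1.2), and the aldolase isoform Aldoc 97.5 and 31.1 (-1.62, -2.05 to -1.18). Pdk4, the kinase that shuts off pyruvate dehydrogenase, was lower (-1.08) as the 1 called of 24 fatty acid genes, and missed the rule with quantile normalization (-0.88).

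In the endoplasmic reticulum stress list 3 of 20 were lower and 19 lay below 0. Herpud1, a component of the degradation machinery of the endoplasmic reticulum, had 278 and 80.3 FPKM (-1.78, -2.19 to -1.37), the cochaperone Dnajb9 differed by -1.37 and the disulfide isomerase Pdia4 by -1.06. In the amino acid response 2 of 22 were lower, Trib3, a pseudokinase that inhibits AKT, at 71.7 and 20.9 FPKM (-1.73), and Ddit3 (-1.13), whose locus overlaps Mars. Of 22 listed NRF2 target genes Osgin1 was lower (-1.13) and 0 were higher. Ptgr1 (1.40), Gss (1.06) and Cbr3 (1.00), NRF2 targets outside the list, were higher. Gss and Cbr3 missed the rule with equal sums (0.94 and 0.90). Heat shock (15), autophagy (22), glutathione transferase and metallothionein (20) and aryl hydrocarbon receptor (7) genes had 0 called. Outside these lists, the small heat shock genes Hspb6 (1.54) and Hspb7 (1.28) and the cochaperone Dnajb5 (1.04) were higher, Dnajb5 missing the rule with equal sums (0.91). The genes named here and among the ion channels from outside the lists were chosen after their values were seen.

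Of 15 FOXO and atrophy genes, 1 was higher and 2 lower. Irs2, an adaptor of the insulin receptor, had 13.9 and 62.2 FPKM (2.08, 1.68 to 2.49). Ccng2, an atypical cyclin of quiescent cells, had 18.2 and 3.36 FPKM (-2.14, -2.60 to -1.70), and Pik3ip1, a negative regulator of PI3 kinase, 53.5 and 14.3 (-1.84). The atrophy ubiquitin ligase Fbxo32 had 106 and 59.1 FPKM and did not meet the rule (-0.84). Cell cycle genes had 0 of 32 called, 27 below 0 and a median of -0.39. Over all genes 5827 of 10408 lay below 0, with 1.83% higher and 2.65% lower. Gadd45g, a stress and growth arrest gene, was the 1 of 9 growth arrest genes called, at 48.5 and 131 FPKM (1.42).

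Clock genes bear on the receptors that SR9009 targets. Arntl, encoding the activator BMAL1 and repressed by REV-ERB, had 7.39 FPKM at 0 h and 17.2 at 4 h (1.12, 0.71 to 1.52), and Nfil3, another repressed gene, had 11.9 and 27.7 (1.16, 0.73 to 1.58). In the vehicle arm Arntl had 7.50 and 20.01 FPKM. The difference between the arms was -0.19 for Arntl and -0.01 for Nfil3, and neither met the rule. Nr1d2, encoding REV-ERBβ, had 35.7 and 17.1 FPKM (-1.02, -1.39 to -0.65), which fell just short with quantile normalization (-0.998) and median centring (-0.97). Nr1d1, encoding REV-ERBα, had 12.2 and 11.2 FPKM with a wide range (-1.11 to 0.91) and overlaps Thra. Of 9 clock repressors and outputs 0 were called: Dbp had 21.2 and 11.8 FPKM (-0.79), Per1 differed by 0.31 and Per2 by 0.27.

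Of the pathway lists, extracellular matrix genes held the largest share of lower members, 14 of 30, with 0 higher, 28 below 0 and a median of -0.98. Eln, encoding elastin, had 127.5 FPKM at 0 h and 20.8 at 4 h (-2.56, -2.97 to -2.15). Wisp2, a matricellular protein of the CCN family, had 29.6 and 3.68 FPKM (-2.71, -3.25 to -2.20), the largest decrease of all called genes, and its relative Nov differed by -1.84. The basement membrane collagen Col4a3 had 12.3 and 1.73 FPKM (-2.28). Postn, the matricellular protein periostin, had 391 and 113 FPKM (-1.78), and Col3a1, a fibrillar collagen, 656 and 270 (-1.28). Elastic fibre assembly was represented by Loxl1 (-1.54), Fbln5 (-1.49), Lox (-1.29) and Fbn1 (-1.27), and fibronectin (Fn1) differed by -1.26. Ctgf, the CCN family growth factor, had 420 and 448 FPKM (0.09, -0.33 to 0.51), and Col1a1 583 and 403 (-0.53), neither meeting the rule. Between 13 and 18 members were lower under the 3 scalings. Postn and Col3a1 are also fibroblast markers, of which 3 of 8 were lower with a median of -0.51. The third, Dpt (-1.08), missed the rule with quantile normalization (-0.87). The other 5, among them Pdgfra at 7.18 and 4.79 FPKM, did not meet the rule, and the part of fibroblast number was not tested.

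Growth factor lists held ligands that were higher and ligands that were lower. Of 25 TGF-β family ligands and regulators 1 was higher and 5 lower. Bmp7 had 7.55 and 30.5 FPKM (1.88, 1.48 to 2.29), while Bmp4 had 10.1 and 2.92 (-1.5), Bmp6 differed by -1.41, Gdf6 by -1.51, the follistatin-like Fstl1 by -1.21 and the latency protein Ltbp2 by -1.04. Ltbp2 missed the rule with median centring (-0.98). Of 28 growth factor genes 1 was higher and 7 lower, 5 of the lower being binding proteins of insulin-like growth factors. These were Igfbp2, at 7.39 and 1.07 FPKM (-2.02), Igfbp4 (-1.49), Igfbp7 (-1.32), Igfbp3 (-1.22) and Igfbp5 (-1.11), with Igfbp3 missing the rule under quantile normalization (-0.98). The other lower genes were the ligands Ptn (-1.34) and Fgf9 (-1.34), and the higher gene was Fgf18 (1.06), which missed the rule with equal sums (0.94). The Igfbp7 locus overlaps Polr2b and Rpl39. Areg (1.39), a ligand of the EGF receptor, and Osmr (1.27), a receptor subunit for oncostatin M, were the 2 higher of 16 in the EGF and gp130 list.

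Among 15 inflammatory genes 5 were higher and 2 lower, with a list median of -0.18. Ccl2, a chemoattractant of monocytes, had 40.5 and 103 FPKM (1.32, 0.94 to 1.71), and its neighbour Ccl7 had 6.32 and 16.5 (1.26). The NF-κB cofactor Nfkbiz (1.67), the membrane-tethered chemokine Cx3cl1 (1.38) and Cxcl1 (1.18) were higher as well. Cxcl12, the ligand of the receptor Cxcr4, had 10.9 and 4.32 FPKM (-1.16), missing the rule with quantile normalization (-0.97), and the alarmin Il33 differed by -1.05, missing it with quantile normalization (-0.83) and with median centring (-0.996). Of 20 interferon-stimulated genes Isg15 (1.69), Usp18 (1.21) and Oasl (1.00) were higher, Oasl missing the rule with equal sums (0.93).

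**Figure D3:**
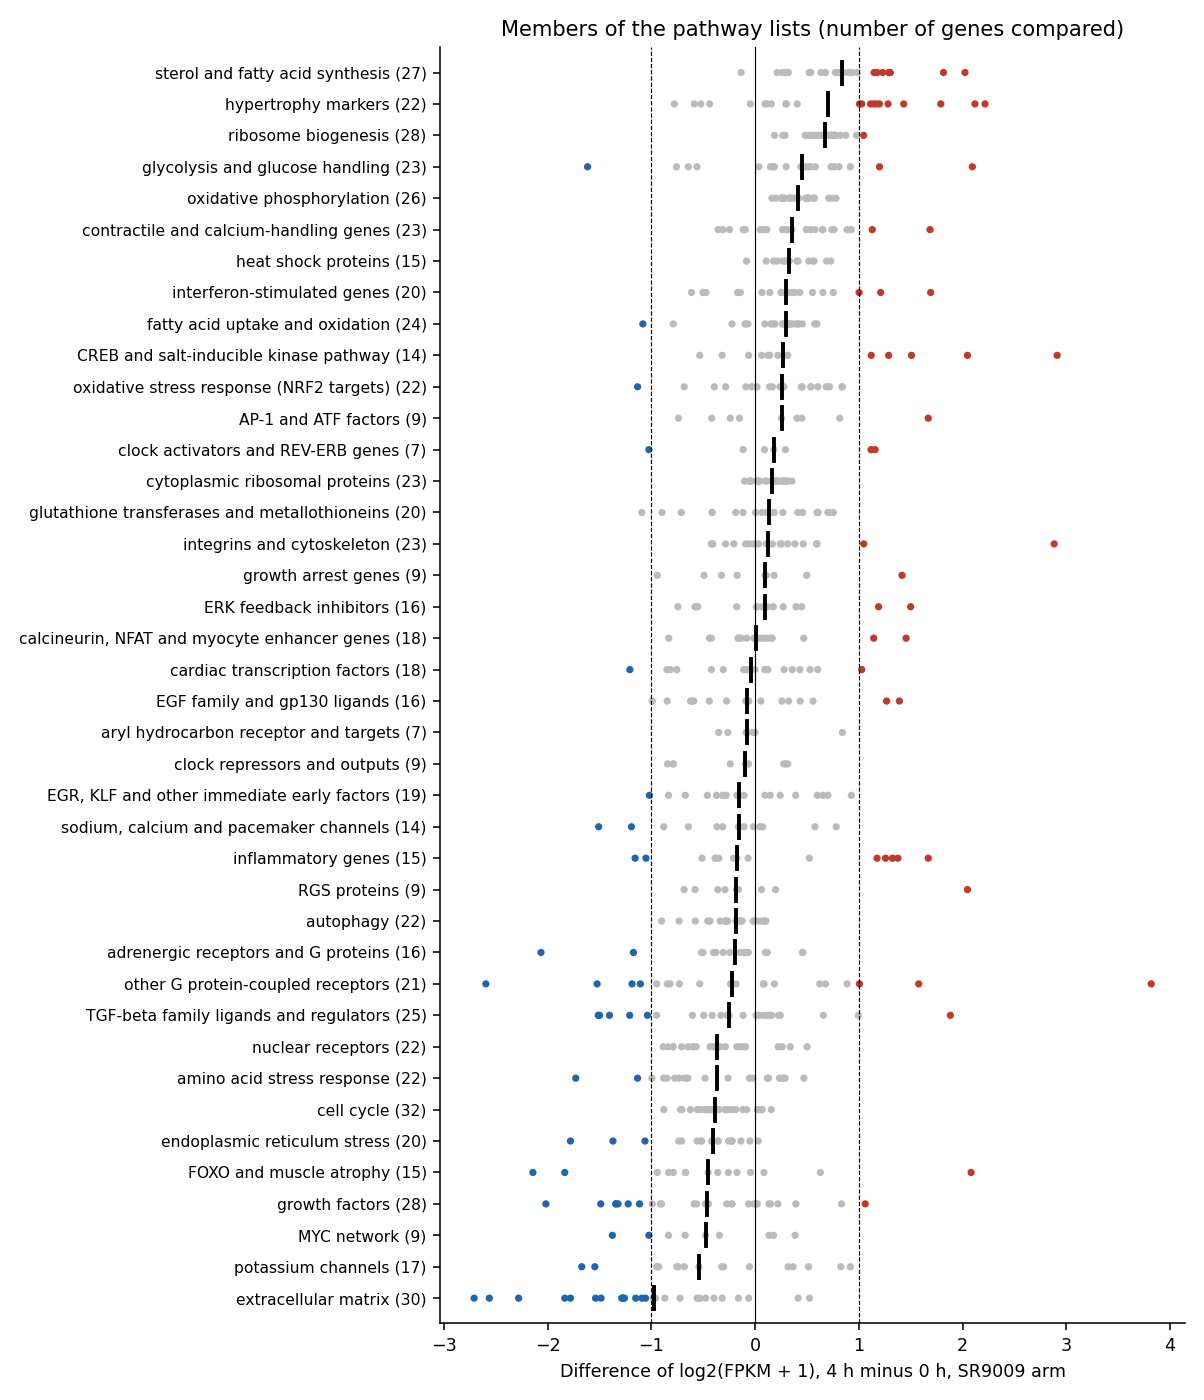
Difference of log2(FPKM + 1) between 4 h and 0 h under SR9009 for each member (points) of the pathway lists with at least 7 genes compared, ordered by median (black bar). Red and blue points met the rule as higher or lower, grey points did not, and dashed lines mark differences of 1 and -1. Sterol and fatty acid synthesis has the highest median (0.84) and extracellular matrix the lowest (-0.98).

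The vehicle arm shows where the response under SR9009 differs from that without it. The arms share no sample. In vehicle 287 genes (2.75%) were higher and 242 (2.32%) lower at 4 h, of 10418. Over the 10394 genes with usable bounds in both arms, the differences had a Pearson r of 0.825 and a Spearman rho of 0.802, across genes, which are not independent replicates. Of 189 genes higher under SR9009 and 281 in vehicle, 149 were higher in both, 78.8% of the former and 53% of the latter. The median difference of the 281 was 1.35 in vehicle, which chose them, and 1.05 under SR9009. For the 189, chosen by the SR9009 values, it was 1.31 under SR9009 and 1.46 in vehicle. Of 274 genes lower under SR9009 and 240 in vehicle, 141 were lower in both, 51.5% and 58.8%. The 274, chosen by the SR9009 values, had medians of -1.22 under SR9009 and -1.02 in vehicle. For the 240, chosen by the vehicle values, the medians were -1.2 in vehicle and -1.12 under SR9009. Called in opposite directions were 0 genes.

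The difference between the arms was defined as the SR9009 response minus the vehicle response, with a range that adds both. It met the rule in 36 genes as lower (0.346%) and in 8 as higher (0.077%). Among them 4 of the 36 and 1 of the 8 were short RNA entries, whose values are uncertain in such libraries. Of the 36, 22 were higher in vehicle and 16 of these did not meet the rule under SR9009. At 0 h 28 of the 36 had a higher level with SR9009 than in vehicle, and at 4 h 32 had a lower one. The same levels chose the genes, so these counts are a description only. Nppb was among the 36. Vehicle went from 105 to 1208 FPKM and SR9009 from 175 to 763, a difference between arms of -1.39 (-2.19 to -0.58). S1pr1 went from 18.9 to 173 FPKM in vehicle, and its difference between arms was -1.56. Atf3, at 3.11 and 15.1 FPKM in vehicle, had -1.57, and Rcan1, at 59.7 and 332 FPKM, had -1.31. For Ctgf vehicle went from 474 to 1109 FPKM (-1.13 between arms), and for the ligand Tgfb2 from 42.8 to 109 FPKM against 42.8 and 47.8 under SR9009 (-1.17). The matricellular Thbs1 (-1.17), Jun (-1.18), Btg2 (-1.18), Gadd45g (-1.09) and Myc (-1.04) also met it. Gadd45g missed it with quantile normalization (-0.97), and Myc with equal sums (-0.99) and with median centring (-0.999). Myc started higher with SR9009, at 15.6 FPKM against 6.12 in vehicle. The EGR, KLF and related list lay below 0 between the arms in 18 of 19 cases with 2 called. The hypertrophy list did so in 19 of 21 cases, with 4 called and a median of -0.59. Over all 10394 genes, 5956 lay below 0 between the arms, with a median of -0.05. Aldoc (-1.36) was lower under SR9009 and did not meet the rule in vehicle, where it had 80.3 and 67.2 FPKM.

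For the 8 genes with a difference between arms above 0, the size of the response was not always larger under SR9009. Rln3 went from 0.144 to 3.79 FPKM in vehicle, and its difference between arms was 1.72 (0.18 to 3.56). The homeobox factor Meis1, at 12.9 and 17.6 FPKM under SR9009 and 22.4 and 13.2 in vehicle, had 1.13 between arms. Ccdc85a (-1.24 in vehicle, 0.00 under SR9009), Cxxc4 (-1.57 and -0.42) and the short RNA entry Rn5s (-2.50 and -1.18) had a decrease in vehicle that was smaller or not seen under SR9009. Tmem179 (-0.11 and 0.98) and Sdr39u1 (-0.39 and 0.62) were also among the 8. Sterol and fatty acid synthesis genes had a median of 0.27 in vehicle, with 4 higher, against 0.84 under SR9009. Their difference between arms lay above 0 in 26 of 27 cases under each scaling, median 0.38, with 0 meeting the rule. The exception was Ch25h, at 0.993 and 16.5 FPKM in vehicle. Matrix genes had 8 lower in vehicle and a median of -0.76, and ribosome biogenesis 9 of 28 higher and a median of 0.83.

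**Figure D4:**
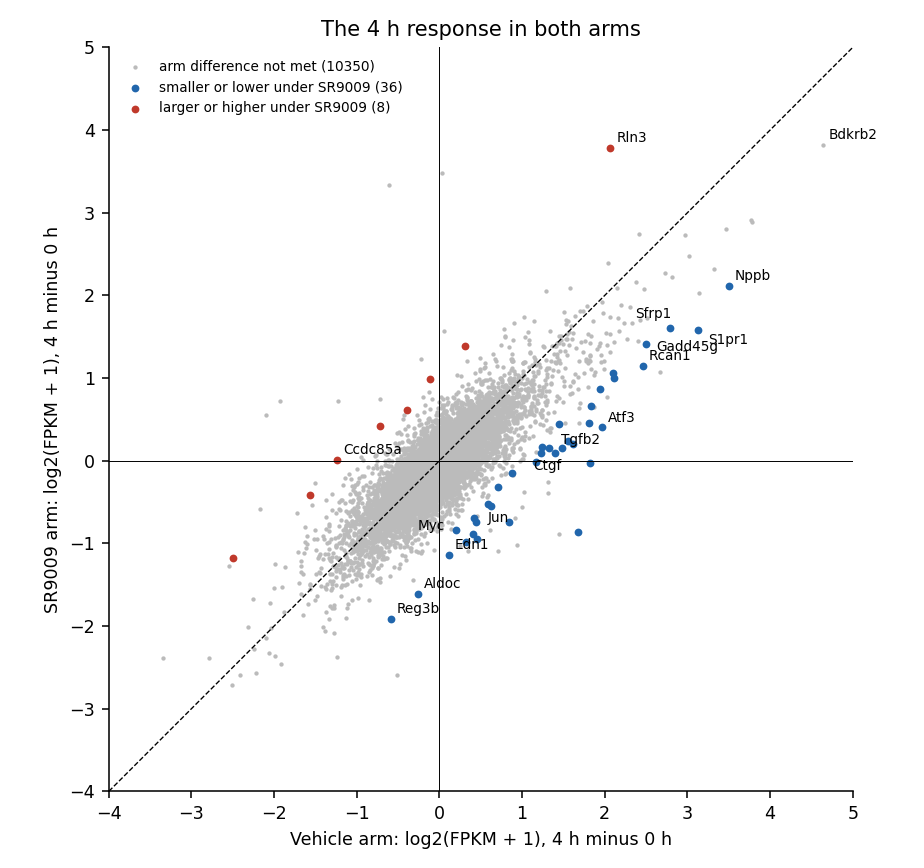
Difference of log2(FPKM + 1) between 4 h and 0 h in the SR9009 arm (vertical axis) against the vehicle arm (horizontal axis) for 10394 genes; the dashed line marks equal responses. Blue points are the 36 genes whose difference between arms met the rule as lower and red points the 8 as higher. Nppb, S1pr1, Rcan1 and Atf3 lie below the line and Rln3 above it.

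Levels after 48 h of PE in the same arm describe the course of the genes called at 4 h. This comparison shares the 0 h and 4 h groups with the calls, so it is a description. Of 189 higher genes with a value at 48 h, 16 were at or beyond their 4 h level, 55 kept at least 50% of the difference, 81 kept less and 37 lay on the other side of the 0 h level. The median share kept was 36.7%. Of 275 lower genes the counts were 12, 67, 146 and 50, with a median of 36.4%. Bdkrb2 was back at 2.27 FPKM at 48 h, from 2.94 and 54.6, while vehicle still had 32.7 FPKM. Fdx1 was at 43.1 FPKM, its 0 h level, and Sik1 at 27.5. Nppa went on to 1734 FPKM, Ankrd1 was at 2655 and Acta1 at 754, and Nppb was at 534. Slc16a3 kept 48.8 FPKM. Of the lower genes, Adra1d had returned to 11.6 FPKM, Kcnj2 to 28.2 and Col4a3 to 20.4, above its 0 h level. Trib3 was lower still at 9.30 FPKM, and Eln, at 62.1, and Wisp2, at 16.4, had come part of the way back.

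**Figure D5:**
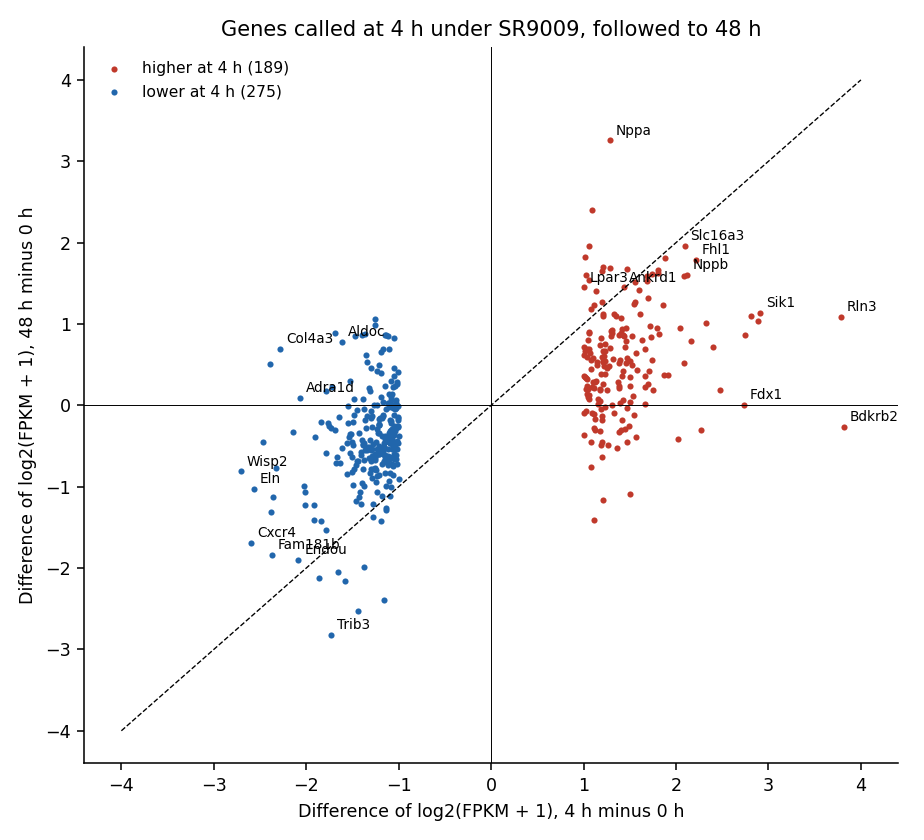
Difference from 0 h at 48 h (vertical axis) against that at 4 h (horizontal axis), both of log2(FPKM + 1) in the SR9009 arm, for the 189 higher (red) and 275 lower (blue) genes; the dashed line marks equal differences. The axes share the 0 h group. Most points lie between the line and 0, Nppa lies above the line, and Bdkrb2 and Fdx1 lie near 0 at 48 h.

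The called genes were spread over gene lengths and levels. Median locus length was 21.4 kb for higher genes, 24.7 kb for lower genes and 22.2 kb over all compared. Median level at 0 h was 12.9, 14.9 and 16 FPKM in the same order. Within 50 kb of each other lay 11 pairs of higher genes, such as Nppb and Nppa (10.9 kb apart) and Ccl2 and Ccl7 (9.22 kb), and 10 pairs of lower genes, such as Igfbp2 and Igfbp5 (9.43 kb) and Col4a4 and Col4a3 (0.567 kb). No matching count over all compared genes was made, so whether called genes lie closer together than others was not tested.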

How the data were processed

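Per the labels' protocols, 18 stranded mRNA libraries, 3 in each of 6 groups, were sequenced. The authors deposited 1 FPKM per gene and group with a lower and an upper bound, a status and a locus, per the file headers. Per the submitters' processing notes, the tools were FastQC, Trim Galore, TopHat and Cuffdiff and the build was rn6. Not given in the sources used here are the versions, the level of confidence behind the bounds and how libraries were scaled to each other. Depth is unknown. Members and gene lists (41 pathway and 8 cell type) were chosen with earlier results of these data known. The limma test planned for library values was not run. Values were taken as log2(FPKM + 1) with a pseudocount of 1 in Python 3.11.15, pandas 2.3.3 and numpy 2.4.6, and the size rule was tested on simulated data. Loci are on rn6, with starts read as counted from 0, because lengths then equal those of 2074 genes of a RefSeq table (GRCr8), against 277 otherwise. Genes named are the 12 largest differences per direction (placeholder symbols left out, at least 5 FPKM), up to 6 members of each list with 2 called, the 8 largest differences between arms per direction, and a set of hypertrophy, early response and clock genes. List members with fewer called, or lying outside these limits, were named after their values were seen. Genes at a listed 0 entered no difference. Alternatives were other pseudocounts, filters, scalings, ranges and sizes. After seeing the data, counts without short RNA entries and without overlapping loci were added. A few genes that the naming rule covers are not reported here by name, and they remain in the counts.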

Additional observations from a re-analysis of the deposited data

How the results depend on the processing

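The count of higher genes was 190, and it was 118 with a pseudocount of 5, 58 with a required difference of 1.5 and 687 with one of 0.58. The count of lower genes was 276, and it was 441 with a pseudocount of 0.1, 100 with one of 5, 415 with FPKM rescaled to equal sums, 52 with a difference of 1.5 and 1044 with one of 0.58. The 44 genes called for the difference between arms were 28 with a pseudocount of 5, 6 with a difference of 1.5 and 81 with one of 0.58. All other settings, including those added after seeing the data, kept the 3 counts within 1.5 times. Similar counts did not mean the same genes. Of the 276 lower genes, 192 kept the call with quantile normalization, 231 with median centring and 276 with equal sums. Of the 190 higher genes, 180, 190 and 147 kept it in the same order. Of the 189 named genes 107 met the rule, and no called difference changed sign. Quantile normalization took the call from 10 of the 107 and gave one to 2 other named genes. Equal sums took 5 and gave 8, median centring took 4 and gave 1, and a pseudocount of 5 took 30 of the 107. No paired analysis was possible because the table holds 1 value per group. Leaving out each replicate and the limma fit with a replicate block were not run for the same reason. Bounds limit precision most for low genes, and depth is unknown.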

Other observations

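Further genes of the Z-disc and sarcomere, chosen after their values were seen, were called at 4 h under SR9009. Mypn, encoding the Z-disc protein myopalladin, had 7.31 FPKM before PE and 36.1 after it, a difference of 2.16 (1.75 to 2.56). Nrap, a scaffold of assembling myofibrils, had 48.3 and 172 FPKM (1.81), although its locus overlaps Habp2. The Z-disc genes Pdlim3 (1.72) and Tcap (1.55) were higher as well. Myom2, which encodes an M-band protein, went the other way, with 112 FPKM at 0 h, 32.7 at 4 h and 94.0 at 48 h (-1.75, -2.17 to -1.32).

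Also chosen after its values were seen, the secreted lectin gene Reg3b had 5122 FPKM before PE and 1360 after it under SR9009, a difference of -1.91 (-2.36 to -1.46). In vehicle it had 2186 and 1458 FPKM, and the difference between arms was -1.33 (-2.21 to -0.44). Reg3 genes have close copies, so reads may be divided among them. The Notch ligand Jag1 (-1.91) and the matrix genes Fbln1 (-1.76), Col14a1 (-1.63) and Fmod (-1.53) were lower under SR9009.

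Entries listed at 0 at one time and at 1 FPKM or more at the other were kept out of every difference. Of 27 entries at 0 only before PE, 27 were short RNA entries, and of 38 at 0 only after it, 37 were. The remaining entry was Myl6, the smooth muscle and nonmuscle myosin light chain, with 40.9 FPKM at 0 h and a listed 0 at 4 h. A listed 0 can be a failed estimate, and short RNA entries are uncertain in a library made from polyadenylated RNA.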
